A study of Mus musculus with 12 samples.

Results

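The genes described here belong to the growth factor, TGF-beta and Wnt signalling families of mouse ES cells. They were taken as every gene probe whose name on the array begins with Fgf, Pdgf, Bmp, Tgfb, Inhb, Acvr, Smad, Lefty, Wnt, Fzd, Sfrp, Dkk or Axin, or equals Nodal, Tdgf1, Id1 to Id4, Lef1, Tcf7 or Ctgf. This rule took 76 of the 20280 gene probes, which carried 59 gene names. No probe was named Smad, Lefty, Sfrp, Nodal, Tdgf1 or Id, since the array design uses older names, and 19 further probes under such names (Madh for Smad, Idb for Id, WNT-4 and others), whose current RefSeq symbol fits the rule, were read beside the 76 and counted apart from them. The prefix rule also took genes that are not components of these pathways by function, such as Tgfb1i4 (now Tsc22d1) and the receptor-like gene Pdgfrl.

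The data came from 4 ES cell lines and 12 arrays, 3 per line. EB5 is the wild type line. RKPG9 is a Rex1+/- clone in which a puromycin resistance and EGFP cassette replaces the start of the open reading frame of Rex1 (Zfp42) on 1 allele, and HP3 and HP4 are Rex1-/- clones. The Rex1-/- lines of the study were derived from Rex1+/- cells, by selection of RKPG9 at a high puromycin dose or with another vector, and still make a truncated Rex1 transcript joined to the cassette. All are E14tg2a or derivatives of it and were grown without feeder cells in serum and LIF. RNA of each line was labelled with Cy3 and hybridised against a Cy5-labelled pool of RNA from 11 cultured mouse cell lines, so that every value below is a log2 ratio of line over pool. Each line is 1 clone. The labels do not state whether its 3 arrays were made from different cultures, and the p-values therefore rest on a spread between arrays that may be technical. In bulk RNA, fewer cells that express a gene and less RNA per cell cannot be told apart.

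FGF, PDGF, TGF-beta, activin, BMP and Wnt proteins are secreted ligands. FGF and PDGF ligands act on receptor tyrosine kinases and the ERK cascade, TGF-beta and activin ligands on serine/threonine kinase receptors and Smad2 and Smad3, and BMP ligands on related receptors and Smad1 and Smad5, with the Id genes as their textbook targets. Wnt ligands act on Frizzled receptors, and through beta-catenin on the TCF/LEF factors Tcf7 and Lef1. In mouse ES cells, BMP4 with LIF favours self-renewal through Id genes, whereas autocrine Fgf4 and ERK favour exit from the naive state.

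The regions upstream of the genes on which the results turn are shown first. Bmp4 and Pdgfa fell together in both Rex1-/- lines, and Id3 is a known BMP target. Each sequence is the 250 bases before a RefSeq transcript start (GRCm38.p6), written 5′ to 3′ on the strand of the gene: Bmp4 at chr14:46390670-46390919, minus strand, both annotated starts of Pdgfa at chr5:138994282-138994531, minus strand and chr5:138994945-138995194, minus strand, and Id3 at chr4:136143572-136143821, plus strand. Capitals mark the Smad box GTCTG or its complement CAGAC.
Bmp4: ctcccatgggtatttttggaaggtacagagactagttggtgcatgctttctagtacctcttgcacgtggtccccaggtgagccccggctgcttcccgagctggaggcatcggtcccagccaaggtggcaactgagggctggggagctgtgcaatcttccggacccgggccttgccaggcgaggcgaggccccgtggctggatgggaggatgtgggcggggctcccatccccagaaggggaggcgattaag
Pdgfa, start 1: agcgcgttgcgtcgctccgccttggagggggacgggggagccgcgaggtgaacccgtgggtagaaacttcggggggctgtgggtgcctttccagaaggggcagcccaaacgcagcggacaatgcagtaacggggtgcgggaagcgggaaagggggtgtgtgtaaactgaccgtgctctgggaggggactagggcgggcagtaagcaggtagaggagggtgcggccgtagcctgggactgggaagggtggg
Pdgfa, start 2: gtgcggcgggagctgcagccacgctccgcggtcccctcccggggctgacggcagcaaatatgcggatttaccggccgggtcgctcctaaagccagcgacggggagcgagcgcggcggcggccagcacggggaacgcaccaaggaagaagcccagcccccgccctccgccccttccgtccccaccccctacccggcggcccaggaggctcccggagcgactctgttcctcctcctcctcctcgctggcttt
Id3: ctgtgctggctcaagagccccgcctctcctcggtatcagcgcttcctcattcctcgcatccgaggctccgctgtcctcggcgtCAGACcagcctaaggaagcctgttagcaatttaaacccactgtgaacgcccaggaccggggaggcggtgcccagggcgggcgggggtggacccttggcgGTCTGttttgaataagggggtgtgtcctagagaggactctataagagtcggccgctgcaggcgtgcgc
The Id3 window held 2 Smad boxes, and the Bmp4 and Pdgfa windows held none. Over all 32851 promoter windows of the same length in RefSeq, 42.2% held a Smad box on either strand. The TCF/LEF motif CTTTGAT, present in 3.21% of all windows, and the Yy1 core GCCATNTT, present in 3.91%, were in none of these windows on either strand, and no motif overlapped another. Yy1 is the zinc finger protein of which Rex1 is a relative. Of the 59 gene names, 43 had an entry in the promoter table.

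The EB5 arrays were read by the scanner software in a session apart from the others, with a global background adjustment that was off for RKPG9, HP3 and HP4, so line and session cannot be told apart in any comparison with EB5, whereas RKPG9, HP3 and HP4 shared a session. The share of gene probes well above background in Cy3 was 85.3% to 94.5%, and lowest in HP4 (85.3% to 86.1%). The Cy3 channel was weaker on the HP4 arrays, with 0 probes saturated in Cy3 on each, against 21 to 29 on every other array. Raw Cy3 signals of Pdgfa, for example, were 1111 to 1442 in HP4 and 1920 to 2760 in HP3. Line and Cy3 strength therefore cannot be told apart in comparisons with HP4. Both Zfp42 probes gave log2 ratios of 5.78 to 6.12 in EB5, RKPG9 and HP3, and of 5.22 to 5.66 in HP4. Their position relative to the replaced part of the gene is not known here, so they do not check the labels. Marker genes of ES cells were high on average in every line: the mean log2 ratio of 16 measured pluripotency genes, Zfp42 included, lay between 2.80 and 3.31 on the 12 arrays. Counting only the 76, 57 were well above background throughout and 4 (Bmp10, Dkk2, Fgf2 and Fgf10) on no array.

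No member of the 76 changed more than 2-fold at an adjusted p under 0.05 (limma, Benjamini-Hochberg over all probes) in any of the 6 comparisons, where the shares of all probes that did so were 0.524%, 0.217% and 0.291% (RKPG9, HP3 and HP4 against EB5), 0.281% and 0.380% (HP3 and HP4 against RKPG9) and 0.0247% (HP4 against HP3). These counts depended on the processing: with the scanner's own processed signals, which replace both the background correction and the dye normalisation, 5, 5, 9, 1, 2 and 0 of the 76 passed 2-fold in the same order (2.98%, 3.03%, 7.17%, 0.843%, 3.32% and 1.36% of all probes), among them Pdgfc, Tgfb2 and Pdgfrl in HP3 against EB5. Over the 168 calls made at the 76 probes, the log2 change was a median 1.38 times the one given here with those signals and 1.33 times at an offset of 0. Without background subtraction it was 0.33 times, and 130 were more than 1.5 times smaller or turned. Of the 168 calls, 78 were lost in the Cy3 channel alone, 36 with the authors' deposited table and 35 without background subtraction. The number lost was 34 under median centring, 31 with the processed signals and 22 at an offset of 0. At an adjusted p under 0.05 alone, which is what rose and fell mean below, 30 of the 76 probes differed between RKPG9 and EB5, 7 upward and 23 downward, against 34.1% of all probes (12.6% upward and 21.6% downward). HP3 differed from EB5 at 26 probes, 5 upward and 21 downward, against 30.5% of all probes (11.4% upward and 19.1% downward). HP4 differed from EB5 at 43, 20 upward and 23 downward, against 44.8% (18.4% and 26.5%). Within the shared session, HP3 differed from RKPG9 at 15, 8 upward and 7 downward, against 22.7% of all probes (12.6% and 10.1%), and HP4 at 32, 21 upward and 11 downward, against 40.0% (20.8% and 19.2%). The 2 Rex1-/- lines differed from each other at 22, 16 upward in HP4 and 6 downward, against 28.5% (13.7% and 14.7%). With the processed signals the split became 16 upward and 22 downward for HP4 against RKPG9 and 12 and 14 for HP4 against HP3, and at an offset of 0, with loess kept, 19 and 16 and 13 and 11.
Arrays of both lines did not overlap at 37 of the 76 probes in RKPG9 against EB5 (49.3% of all probes), 32 in HP3 against EB5 (46.2%), 45 in HP4 against EB5 (53.5%), 21 in HP3 against RKPG9 (39.8%), 42 in HP4 against RKPG9 (51.2%) and 29 in HP4 against HP3 (42.9%).
The shares of the 76 probes that passed (39.5%, 34.2%, 56.6%, 19.7%, 42.1% and 28.9%) were not tested against those of the whole array. The median log2 change of the 76 probes was between -0.07 and 0.03 in the 6 comparisons, and that of all probes between -0.02 and 0.01. Comparisons with EB5 share the EB5 arrays and those with RKPG9 share the RKPG9 arrays.

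**Figure D1:**
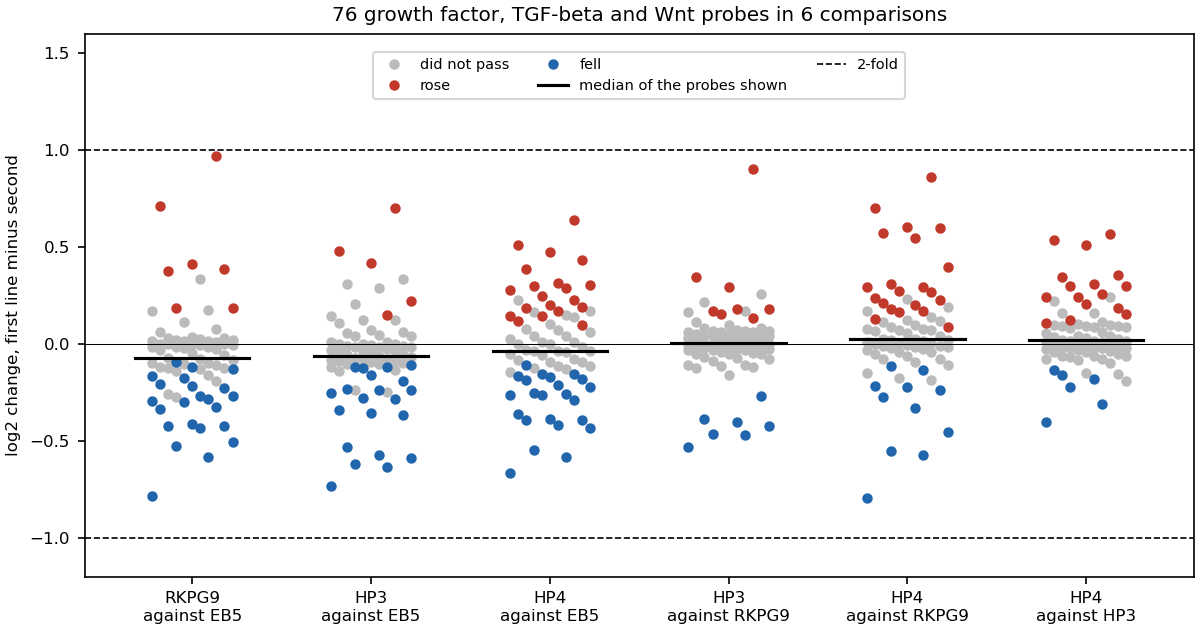
Log2 change (first line minus second) of each of the 76 probes in 6 comparisons. Points are probes, red where the probe rose and blue where it fell at an adjusted p under 0.05, grey otherwise. Black bars are medians, between -0.07 and 0.03, and no point lies beyond the dashed 2-fold lines.

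Among the BMP genes, Bmp4 had the clearest pattern. Its log2 ratio was 0.11, 0.13 and 0.07 for EB5, 0.00, 0.02 and 0.02 for RKPG9, -0.50, -0.52 and -0.53 for HP3, and -0.52, -0.58 and -0.58 for HP4. Every Rex1-/- array was thus below every array of EB5 and RKPG9, with no overlap. Against RKPG9, Bmp4 fell 1.44-fold in HP3 (log2 change -0.53, SE 0.030, adjusted p = 2.3e-07) and 1.49-fold in HP4 (-0.57, SE 0.030, adjusted p = 8.1e-08). Against EB5 the log2 changes were -0.62 (adjusted p = 9e-08) in HP3 and -0.66 (adjusted p = 5.1e-08) in HP4, and -0.09 in RKPG9 (adjusted p = 0.034). Both falls against RKPG9 passed the test under every alternative of processing tried, each left-out array included, whereas the small RKPG9 change did not pass when EB5 replicate 1 or 2 or any 1 RKPG9 array was left out (-0.10 to -0.08), nor with the processed signals (-0.077), at an offset of 0 (-0.064) or under median centring (-0.15). HP4 and HP3 differed by -0.04, with a 95% interval from -0.11 to 0.02, and by -0.53, which passed the test, where each array was centred on its median in place of loess.

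The other BMP ligands gave no such step. Over the 9 probes of 8 BMP ligand genes, Bmp4 was the 1 that passed in HP3 against RKPG9, and 3 passed in HP4 against RKPG9, all downward (Bmp4, Bmp6 and a Bmp15 probe). Bmp6 fell in HP4 by 0.27 on the log2 scale against RKPG9 (adjusted p = 0.042), a call that was lost without HP4 replicate 1 (-0.17) or 2 (-0.30) or without any 1 RKPG9 array, was -0.033 without background subtraction, and turned to 0.18 under median centring. Its change in HP3 was -0.12 (adjusted p = 0.46). Bmp15 probe A_65_P01009 was not well above background on any HP4 array, and its log2 ratio there was 0.24 below that in RKPG9 (adjusted p = 0.011). In the normalised Cy3 channel alone, where dye bias is not balanced, it was 1.24-fold lower, a difference of means and not a lower bound. Median centring turned the log2 change to 0.28, it was -0.0087 without background subtraction, and the call was lost without RKPG9 replicate 3 (-0.19). The other Bmp15 probe, A_65_P06395, was well above background on every array and passed in none of the 6 comparisons. Its change in HP4 against RKPG9 was 0.01 (adjusted p = 0.93). Bmp7 fell in RKPG9, HP3 and HP4 against EB5 by 0.17 to 0.25 on the log2 scale, and did not pass within the shared session. These falls rest on 2 usable EB5 arrays. Without replicate 2 they did not pass (-0.17, -0.20 and -0.12), but that leaves 1 EB5 array, whose spread is then taken from the other lines, and in the Cy3 channel alone none passed (-0.12 and -0.051, and 0.071 in HP4). The protease Bmp1 (Bmp-1 on the array) cleaves procollagens and BMP antagonists. Its 3 probes fell in RKPG9, HP3 and HP4 against EB5, at probe A_65_P20625 by 0.42, 0.35 and 0.43. Without background subtraction the last of these was -0.035 and did not pass.

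Of the receptors, the BMP type I receptor Bmpr1a fell against EB5 at probe A_65_P11834 by 0.27 for RKPG9, 0.34 for HP3 and 0.36 for HP4 on the log2 scale, calls that were lost in the Cy3 channel alone, and at none of its 3 probes did HP3 or HP4 pass against RKPG9. The type II receptor Bmpr2 was level in EB5, RKPG9 and HP3 (mean log2 ratios -0.58, -0.55 and -0.58) and higher in HP4 (-0.28), a log2 rise of 0.30 over HP3 (adjusted p = 0.00035). No array of HP4 overlapped another line for the Bmpr2 ratio. Raw Cy3 signals of Bmpr2 were lowest in HP4, at 453.9 to 460.2. They were 467.3 to 475.2 in HP3, 472.6 to 477.4 in RKPG9 and 461.1 to 476.9 in EB5. The remaining receptors of the superfamily (Acvr1, Acvr2, Acvr2b, Tgfbr1 and Tgfbr3) passed in neither Rex1-/- line against RKPG9.

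The Id and Smad genes, read from probes under their older names, varied more between lines. Id3 had log2 ratios of -0.94, -0.83 and -0.77 for EB5, -1.19, -1.21 and -1.21 for RKPG9, -1.64, -1.67 and -1.66 for HP3, and -1.22, -1.23 and -1.31 for HP4. HP3 was lowest, 1.37-fold under RKPG9 (log2 change -0.46, SE 0.044, adjusted p = 1.3e-05), while HP4 differed from RKPG9 by -0.05 (adjusted p = 0.4). This last difference passed as a fall of 0.67 under median centring and of 0.23 in the Cy3 channel alone. Id2 lay at -1.67, -1.62 and -1.61 for EB5, -1.13, -1.11 and -1.13 for RKPG9, -1.66, -1.66 and -1.67 for HP3, and -1.16, -1.11 and -1.13 for HP4. HP3 thus stood with EB5, and HP4 with RKPG9, and HP3 fell 1.46-fold against RKPG9 (-0.54, SE 0.029, adjusted p = 1.5e-07). For Id1, whose probe was well above background on at most 1 array of each line, the log2 ratio in HP4 was 0.31 above that in HP3 (adjusted p = 0.0044), with raw Cy3 signals of 448.5 to 457.6 in HP4 and 453.9 to 469.9 in HP3.
Id4 gave different results at its 2 probes. At A_65_P11770 it rose 1.77-fold in RKPG9 over EB5 (0.82, SE 0.047, adjusted p = 1.5e-07) and fell against RKPG9 in HP3 by 0.68 and in HP4 by 0.91 on the log2 scale (adjusted p = 9e-07 and 7.3e-08), while A_65_P12264 passed in none of the 6 comparisons. The rise in RKPG9 was 0.036 and did not pass in the Cy3 channel alone. Under median centring, HP4 against HP3 turned to -0.08 for Id3 and was 0.037 for Id2, and HP4 against EB5 turned to -0.13 for Id2.

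Smad1, which carries the BMP signal, had the same shape at both of its probes in HP3, RKPG9 and EB5. At A_65_P10487 its log2 ratio was -0.49, -0.44 and -0.53 for EB5, -0.12, -0.09 and -0.08 for RKPG9, -0.36, -0.53 and -0.50 for HP3, and -0.57, -0.57 and -0.67 for HP4. RKPG9 was above every other array at this probe. Smad1 fell against RKPG9 by 0.37 in HP3 and 0.50 in HP4 on the log2 scale at A_65_P10487 (adjusted p = 0.00014 and 7.9e-06), and by 0.44 and 0.21 at A_65_P11279 (adjusted p = 4.3e-05 and 0.0053), which did not pass in the Cy3 channel alone (-0.28 and 0.0086). Smad3, the TGF-beta and activin effector, was named after its values were seen. It fell from EB5 to RKPG9 by 0.26 and from RKPG9 by a further 0.24 in HP3 and 0.34 in HP4 (adjusted p = 0.0054 and 0.00037), neither of which passed in the Cy3 channel alone. Smad5, also a BMP effector and also named after its values were seen, rose at probe A_65_P09280 by 0.13 and 0.22 over RKPG9 (adjusted p = 0.021 and 0.00059) and did not pass at A_65_P06572. The rise in HP3 was lost without RKPG9 replicate 3 or HP3 replicate 1 or 2 (0.11 to 0.13), under median centring (0.047) and from Cy3 without the reference, and that in HP4 turned to -0.093 under median centring. Smad4, the shared partner of the receptor Smads, passed in none of the 6 comparisons, with log2 changes of -0.04 to 0.12. A probe named Ebaf, an older symbol held by both Lefty1 and Lefty2, which encode Nodal antagonists, rose in HP3 by 0.26 and fell in HP4 by 0.34 against RKPG9 (adjusted p = 0.0098 and 0.0012), and neither passed in the Cy3 channel alone (0.16 and -0.23). The rise in HP3 also did not pass without background subtraction (0.11), under median centring (0.16) or, at 0.29, with the processed signals.

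**Figure D2:**
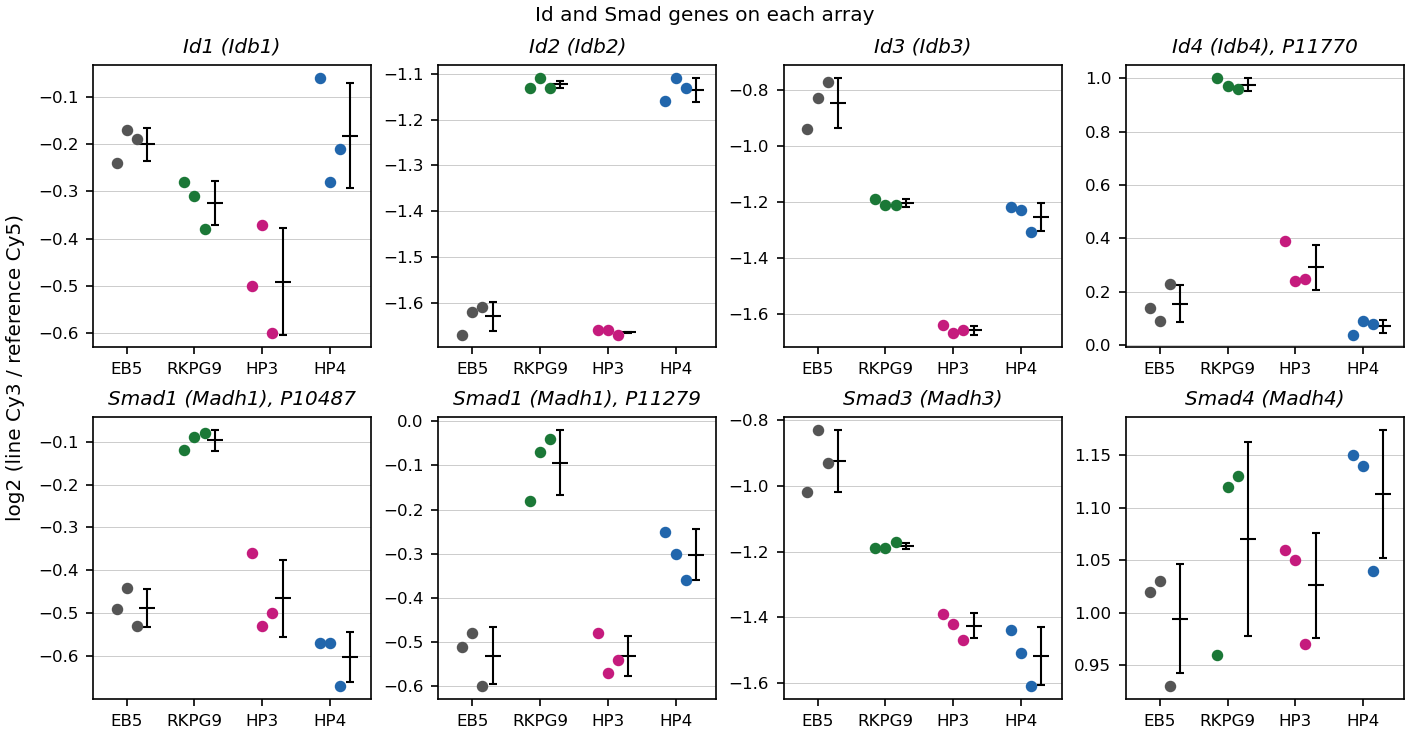
Log2 ratio of line (Cy3) over reference pool (Cy5) of Id and Smad probes, with the array's older name in brackets. Points are arrays, 3 per line, and black bars the mean and SD. Id2 falls into 2 levels, near -1.6 in EB5 and HP3 and near -1.1 in RKPG9 and HP4, and both Smad1 probes are highest in RKPG9.

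The other genes of TGF-beta, BMP and Nodal signalling were read from a list of 52, of which 27 were measured. Against RKPG9, 4 rose and 6 fell in HP3 and 9 rose and 6 fell in HP4, with medians of -0.01 and 0.04, where 12.6% of all probes rose and 10.1% fell in HP3 and 20.8% rose and 19.2% fell in HP4. Furin, the protease that matures the precursors of TGF-beta family ligands, fell in HP3 by 0.43 and in HP4 by 0.26 on the log2 scale against RKPG9 (adjusted p = 2.4e-06 and 8e-05), and its HP4 change was 0.10 without background subtraction and -0.12, which did not pass, in the Cy3 channel alone. Pmepa1, a feedback inhibitor of TGF-beta signalling, fell by 0.20 and 0.18 (adjusted p = 0.0018 and 0.002), the first of which did not pass in the Cy3 channel alone.

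In the PDGF family, Pdgfa was lower in both Rex1-/- lines than in the others. Pdgfa, a ligand of the PDGF receptors, had log2 ratios of 0.45, 0.46 and 0.43 for EB5, 0.32, 0.30 and 0.33 for RKPG9, -0.12, -0.18 and -0.13 for HP3, and -0.10, -0.17 and -0.13 for HP4. Arrays of the Rex1-/- lines did not overlap with either other line. Against RKPG9, Pdgfa fell 1.38-fold in HP3 (-0.46, SE 0.032, adjusted p = 8.6e-07) and 1.37-fold in HP4 (-0.45, SE 0.032, adjusted p = 6.8e-07), and both falls passed under every alternative tried. HP4 and HP3 differed by 0.01, with a 95% interval from -0.06 to 0.08. Under median centring the HP4 minus HP3 difference was -0.49 (adjusted p = 3.1e-05).

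Pdgfc, another PDGF ligand, moved the other way between EB5 and RKPG9. At probe A_65_P07461 its log2 ratio was -0.98, -1.12 and -1.16 for EB5, -0.11, -0.13 and -0.10 for RKPG9, -0.37, -0.40 and -0.37 for HP3, and -0.41, -0.47 and -0.45 for HP4. EB5 was lowest and RKPG9 highest, without overlap. Pdgfc rose 1.96-fold in RKPG9 over EB5 (0.97, SE 0.043, adjusted p = 1.8e-08), and fell against RKPG9 by 0.27 in HP3 and 0.33 in HP4 on the log2 scale (adjusted p = 0.00072 and 9.8e-05). The other Pdgfc probe, A_65_P02996, passed in none of the 6 comparisons (0.01 for RKPG9 against EB5, adjusted p = 0.92).

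The receptors Pdgfra and Pdgfrb were far below the reference pool in all lines and, in the values given here, highest in HP4. Over EB5 the HP4 rises were 0.43 and 0.32. Neither passed with the processed signals (0.028 and -0.34), at an offset of 0 (0.012 and -0.19) or under median centring (0.050 and -0.013). Raw Cy3 signals of Pdgfra were 444.2 to 449.9 in HP4, 454.3 to 457.9 in HP3, 457 to 461.4 in RKPG9 and 459.6 to 467.9 in EB5. Pdgfra, a marker of mesenchymal and primitive endoderm cells, lay at -2.69, -2.64 and -2.83 for EB5, -3.16, -3.18 and -3.11 for RKPG9, -2.72, -3.06 and -2.79 for HP3, and -2.23, -2.35 and -2.28 for HP4. It rose in HP4 1.82-fold over RKPG9 (0.86, SE 0.078, adjusted p = 5.7e-06) and 1.48-fold over HP3 (0.57, adjusted p = 0.00045), and in HP3 by 0.29 over RKPG9 (adjusted p = 0.018), where the last call was lost without RKPG9 replicate 1 or 2 or HP3 replicate 1 or 3 (0.22 to 0.29), with the processed signals (0.033), at an offset of 0 (0.14) and from Cy3 without the reference (0.098). Pdgfrb rose in HP4 by 0.57 over RKPG9 and 0.35 over HP3 (adjusted p = 0.0013 and 0.030), and lost both calls with the processed signals (0.067 and 0.18) and at an offset of 0 (0.034 and 0.076). The call over HP3 was also lost without HP3 replicate 2 (0.26) or 3 (0.37) or HP4 replicate 1 (0.28). The Pdgfrl log2 ratio was lower than in EB5, with changes of -0.58 (RKPG9), -0.64 (HP3) and -0.39 (HP4) that all passed, and it passed nowhere within the shared session. From Cy3 without the reference none of these passed (-0.18, -0.28 and -0.060), and the HP4 change turned to 0.057 without background subtraction.

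**Figure D3:**
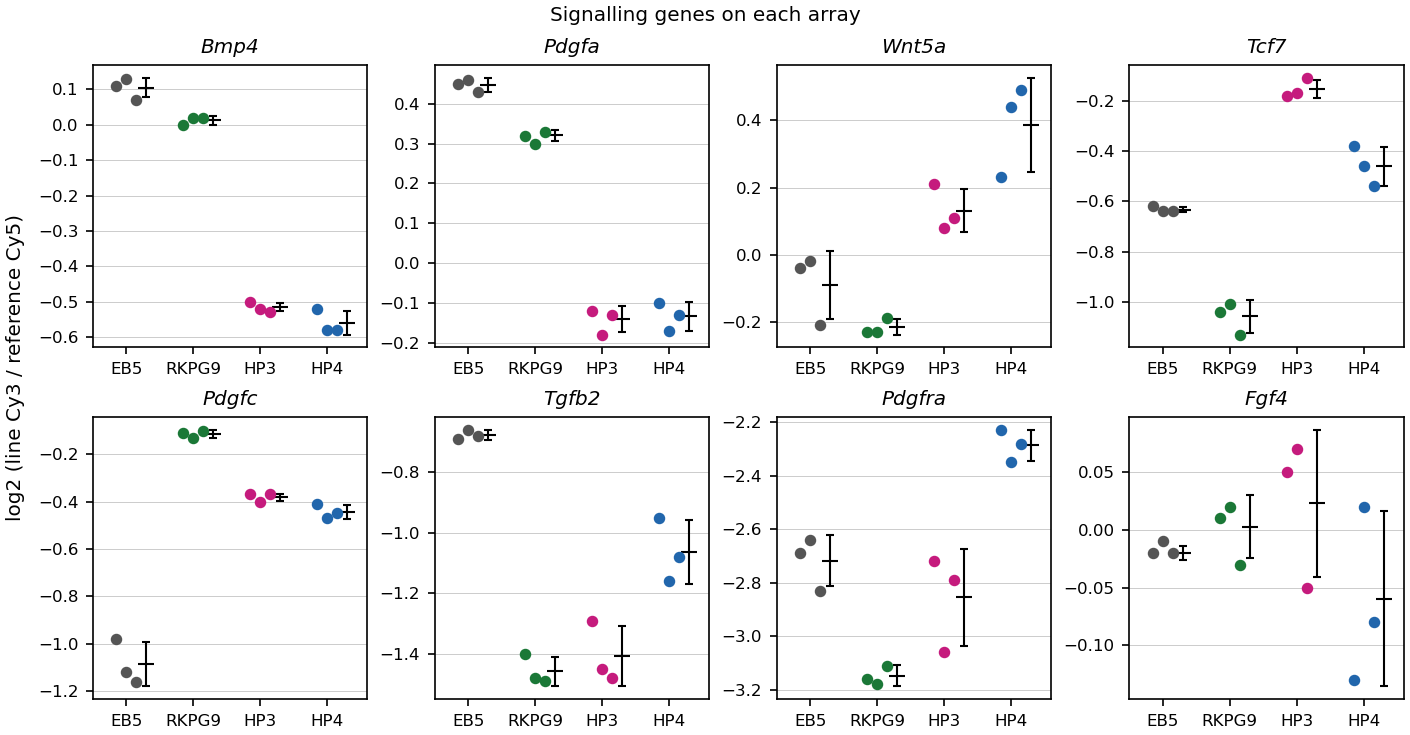
Log2 ratio of line (Cy3) over reference pool (Cy5) of 8 genes on each array, with a scale of its own in each panel. Points are arrays, 3 per line, and black bars the mean and SD (Tcf7, Pdgfc and Tgfb2 at probes A_65_P06324, A_65_P07461 and A_65_P18583). Bmp4 and Pdgfa are lower on all 6 Rex1-/- arrays, and the Fgf4 arrays overlap between lines. Pdgfra is highest in HP4, over EB5 by 0.43 (0.028, which did not pass, with the processed signals).

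Tgfb2, a TGF-beta ligand, fell at both of its probes from EB5 to RKPG9 and HP3. At A_65_P18583 its log2 ratio was -0.69, -0.66 and -0.68 for EB5, -1.40, -1.48 and -1.49 for RKPG9, -1.29, -1.45 and -1.48 for HP3, and -0.95, -1.16 and -1.08 for HP4. Against EB5 it fell 1.72-fold in RKPG9 (-0.78, SE 0.059, adjusted p = 1.3e-06), 1.66-fold in HP3 (-0.73, adjusted p = 4.3e-06) and 1.31-fold in HP4 (-0.39, adjusted p = 0.00032). At A_65_P10913 the same changes were -0.53, -0.53 and -0.22. The HP4 changes from EB5 at both probes did not pass without background subtraction, and at A_65_P10913 the HP3 change did not pass in the Cy3 channel alone (-0.17). HP4 lay between EB5 and the other lines, above HP3 by 0.34 and 0.31 at the 2 probes (adjusted p = 0.0015 and 0.001). At the first probe this was 0.068 with the processed signals, 0.22 at an offset of 0 and also 0.22 from Cy3 without the reference, and did not pass. Its rise over RKPG9, 0.40 in HP4 (adjusted p = 0.00024), likewise became 0.10 with the processed signals and 0.24 at an offset of 0, neither of which passed. Neither probe passed in HP3 against RKPG9 (adjusted p = 0.61 and 0.97).

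Inhba, which encodes the activin A subunit, had log2 ratios of -1.90, -1.79 and -2.02 for EB5, -2.24, -2.42 and -2.29 for RKPG9, -1.93, -2.35 and -2.18 for HP3, and -1.52, -1.64 and -1.68 for HP4. It was higher in HP4 than in RKPG9 by 0.70 (adjusted p = 0.00015) and than in HP3 by 0.54 (adjusted p = 0.0022), from a probe well above background on 1 array each of RKPG9, HP3 and HP4. With the processed signals the differences were as large, 0.70 and 0.56, and neither passed (adjusted p = 0.12 and 0.24). Tgfb3, another TGF-beta ligand, rose in HP4 by 0.29 over RKPG9 (adjusted p = 0.00063). Tgfb1i1, which encodes a focal adhesion protein, fell below EB5 by 0.50 (RKPG9), 0.57 (HP3) and 0.54 (HP4) on the log2 scale, with adjusted p of 4.1e-06 to 5.4e-06, and did not pass within the shared session.
Ctgf, a matricellular protein induced by TGF-beta, was lowest in HP3 at probe A_65_P03285, with -0.59, -0.56 and -0.59 for EB5, -0.39, -0.40 and -0.40 for RKPG9, -0.80, -0.87 and -0.79 for HP3 and -0.63, -0.62 and -0.59 for HP4. Its changes from RKPG9 were -0.42 (HP3) and -0.22 (HP4) (adjusted p = 1.6e-06 and 0.00019), and HP4 against HP3 turned from 0.21 to -0.16 under median centring. At the other Ctgf probe, A_65_P11298, it passed in none of the 6 comparisons. The 3 probes of Tgfb1i4 disagreed too: at A_65_P07352 the changes from RKPG9 were -0.39 for HP3 and -0.79 for HP4, with adjusted p of 0.00043 and 1.6e-06, whereas at A_65_P20794 the changes were 0.03 and 0.13 (adjusted p = 0.83 and 0.21).

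**Figure D4:**
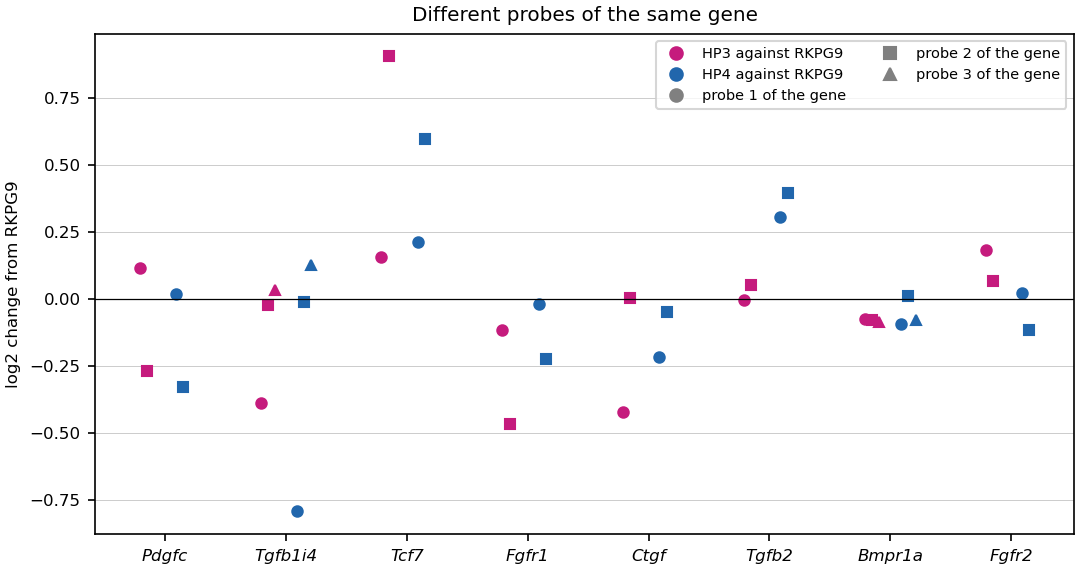
Log2 change from RKPG9 in HP3 (pink) and HP4 (blue) at each probe of 8 genes with several probes, by symbol. For Pdgfc, Tgfb1i4, Fgfr1 and Ctgf 1 probe passed and the others did not, while both Tgfb2 probes rose in HP4, by 0.31 and 0.40 (the latter 0.10, which did not pass, with the processed signals).

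In the FGF family the ligand Fgf4, which ES cells secrete, passed the test in none of the 6 comparisons. Its log2 ratio was -0.02, -0.01 and -0.02 for EB5, 0.01, 0.02 and -0.03 for RKPG9, 0.05, 0.07 and -0.05 for HP3, and -0.13, 0.02 and -0.08 for HP4, and the arrays of all lines overlapped. Raw Cy3 signals at its probe were 481.4 to 646.9, beside 441.6 to 459.7 for Fgf10, which was well above background on no array. How well the probe reports Fgf4 was not tested. Its change against RKPG9 was 0.02 in HP3 (95% interval -0.08 to 0.12) and -0.06 in HP4 (-0.16 to 0.03). With other processing it did pass: its change in HP4 was -0.15 from EB5 and -0.20 from RKPG9 with the processed signals, and in the Cy3 channel alone its changes from EB5 were -0.36 for RKPG9, -0.30 for HP3 and -0.42 for HP4. None of the 11 probes of 9 FGF ligand genes passed in HP3 against RKPG9, and 4 rose and none fell in HP4. The largest of these was Fgf7, a ligand made by mesenchymal cells, at -3.33, -3.47 and -3.44 for RKPG9, -3.27, -3.48 and -3.37 for HP3 and -2.77, -2.83 and -2.99 for HP4 (probe A_65_P16106). HP4 exceeded HP3 by 0.51 (SE 0.089, adjusted p = 0.0017), a call lost with the processed signals (0.21). Its rise over RKPG9, 0.55 (adjusted p = 0.00045), also did not pass with the processed signals (0.29) or under median centring (0.14). At the other Fgf7 probe, A_65_P13393, the rise over RKPG9 was 0.18 (adjusted p = 0.043), and HP4 differed from HP3 by 0.09, with a 95% interval from -0.05 to 0.24. Fgf5, a marker of primed epiblast, was well above background on no array of RKPG9 or HP3, 2 of EB5 and 1 of HP4, and its log2 ratio in HP4 was 0.16 above that in RKPG9 (adjusted p = 0.043), with raw Cy3 signals of 447.4 to 449.7 in HP4 and 451.0 to 455.7 in RKPG9.

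The receptor Fgfr1 was highest in RKPG9 and lowest in HP3 at probe A_65_P14472, with -0.14, -0.07 and -0.10 for EB5, 0.06, 0.10 and 0.09 for RKPG9, -0.35, -0.38 and -0.41 for HP3 and -0.10, -0.11 and -0.20 for HP4. It fell below RKPG9 1.38-fold in HP3 (-0.47, SE 0.037, adjusted p = 2.7e-06) and by 0.22 in HP4 (adjusted p = 0.00051), the latter at 0.0038 in the Cy3 channel alone. At A_65_P11598 its change in HP3 was -0.12 (adjusted p = 0.20). Fgfr2 fell in HP4 against HP3 at both of its probes, by 0.16 and 0.18 on the log2 scale (adjusted p = 0.012 and 0.0016), neither of which passed in the Cy3 channel alone, and the first turned to 0.14 under median centring. Fgfbp1, a secreted carrier of FGFs, had a mean log2 ratio of 2.43 in RKPG9 (SD 0.039, n = 3). It rose 1.64-fold in RKPG9 over EB5 (0.71, SE 0.13, adjusted p = 0.0011) and fell against RKPG9 by 0.40 in HP3 and 0.55 in HP4 (adjusted p = 0.042 and 0.0051). The call in HP3 was lost without any 1 RKPG9 array or without HP3 replicate 1 or 3 (-0.42 to -0.31), with the processed signals (-0.35), at an offset of 0 (-0.35) and under median centring (-0.40), and that in HP4 at an offset of 0 (-0.38).
Other genes of FGF and ERK signalling were read from a list of 36, of which 23 were measured. Against RKPG9, 6 rose and 5 fell in HP3 and 11 rose and 3 fell in HP4, with medians of 0.06 and 0.11, beside the same shares of all probes (12.6% and 10.1% in HP3, 20.8% and 19.2% in HP4). Egr1, an immediate early gene induced by ERK, rose by 0.90 in HP3 and 1.098 in HP4 against RKPG9 (adjusted p = 2.5e-06 and 3.8e-07). Dusp4, a phosphatase that acts on ERK, fell against RKPG9 by 0.24 in HP3 and 0.63 in HP4 (adjusted p = 0.00085 and 3.2e-07). Dusp6, another such phosphatase, fell below EB5 by 0.65, 0.65 and 0.53 for RKPG9, HP3 and HP4 (adjusted p = 6.8e-08, 1.7e-07 and 7.2e-07). The Dusp6 falls are from another baseline, where line and session cannot be told apart, and are not to be set against those of Dusp4.

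Among the Wnt genes, Wnt5a and Tcf7 were higher in both Rex1-/- lines than in RKPG9. Wnt5a, a ligand that mostly acts without beta-catenin, lay at -0.04, -0.02 and -0.21 for EB5, -0.23, -0.23 and -0.19 for RKPG9, 0.21, 0.08 and 0.11 for HP3, and 0.23, 0.44 and 0.49 for HP4. Both Rex1-/- lines were above every other array, but the place of HP3 above EB5 depended on the processing. The HP3 change from EB5 was 0.22 (adjusted p = 0.03). That call was lost without background subtraction (0.062), from Cy3 without the reference (0.23) and with arrays centred on their medians (0.16). Leaving out EB5 replicate 3 or HP3 replicate 1 or 3 also lost it (0.16 to 0.23). Wnt5a rose over RKPG9 1.27-fold in HP3 (0.35, SE 0.069, adjusted p = 0.0029), which did not pass in the Cy3 channel alone (0.16). In HP4 it rose 1.52-fold over RKPG9 (0.60, SE 0.069, adjusted p = 3.2e-05). A probe named WNT-4, chosen after its values were seen, was lower than in EB5, with changes of -0.69 for RKPG9, -0.79 for HP3 and -0.75 for HP4 (adjusted p = 2.8e-06, 1.9e-06 and 2.4e-06, with 2 usable EB5 arrays), and did not pass within the shared session. The other 4 Wnt ligands by name (Wnt5b, Wnt6, Wnt7a and Wnt15, now Wnt9b) did not pass in either Rex1-/- line against RKPG9.

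Tcf7, a transcription factor that binds beta-catenin, had log2 ratios at probe A_65_P06324 of -0.62, -0.64 and -0.64 for EB5, -1.04, -1.01 and -1.13 for RKPG9, -0.18, -0.17 and -0.11 for HP3, and -0.38, -0.46 and -0.54 for HP4. The 4 lines did not overlap, in the order RKPG9, EB5, HP4 and HP3. The place of HP4 above EB5 depended on the normalisation. Its change from EB5 was 0.17, and turned to -0.24 under median centring, which passed (adjusted p = 0.0011). Tcf7 rose over RKPG9 1.87-fold in HP3 (0.90, SE 0.045, adjusted p = 8.1e-08) and 1.51-fold in HP4 (0.60, SE 0.045, adjusted p = 1.2e-06). At the other probe, A_65_P03815, the rises were 0.16 and 0.21 (adjusted p = 0.0088 and 0.00073), and they turned to -0.33 and -0.13 in the Cy3 channel alone. Lef1, its relative, passed in neither line against RKPG9 at the probe of that name, with changes of 0.03 and 0.12. At a probe named LEF-1, well above background on 1 array each of EB5 and RKPG9, it rose by 0.29 and 0.36 (adjusted p = 0.0076 and 0.0011), and the first did not pass under median centring nor the last in the Cy3 channel alone. The Frizzled receptor Fzd4 rose by 0.18 in HP3 and 0.27 in HP4 (adjusted p = 0.018 and 0.00083), the first of which was lost without RKPG9 replicate 3 (0.14) or HP3 replicate 3 (0.17), under median centring (0.14) and from Cy3 without the reference (0.15). Of the antagonists, Dkk3 rose in HP4 by 0.29 over RKPG9 and 0.30 over HP3 (adjusted p = 0.0018 and 0.0035), the first of which did not pass with the processed signals at 0.31. Dkk1 at probe A_65_P20867 was well above background on no EB5 array and on 2 RKPG9 arrays. It rose in RKPG9 over EB5 by 0.41 (adjusted p = 0.013), a call lost under median centring (0.29). In the normalised Cy3 channel it was 1.32-fold higher. At the other Dkk1 probe, A_65_P05512, the log2 change in RKPG9 over EB5 was -0.02 (adjusted p = 0.88), and no comparison passed.
From a list of 66 other Wnt pathway genes, 37 were measured. Against RKPG9, 11 rose and 2 fell in HP3 and 10 rose and 6 fell in HP4, with medians of 0.06 in both, beside 12.6% and 10.1% of all probes in HP3 and 20.8% and 19.2% in HP4. Csnk1e, a kinase of this pathway, fell by 0.26 and 0.52 (adjusted p = 0.0041 and 4.3e-05), and neither fall passed in the Cy3 channel alone. Vangl2, a planar cell polarity protein, was 0.63 lower in HP4 than in HP3 (adjusted p = 0.0059).

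**Figure D5:**
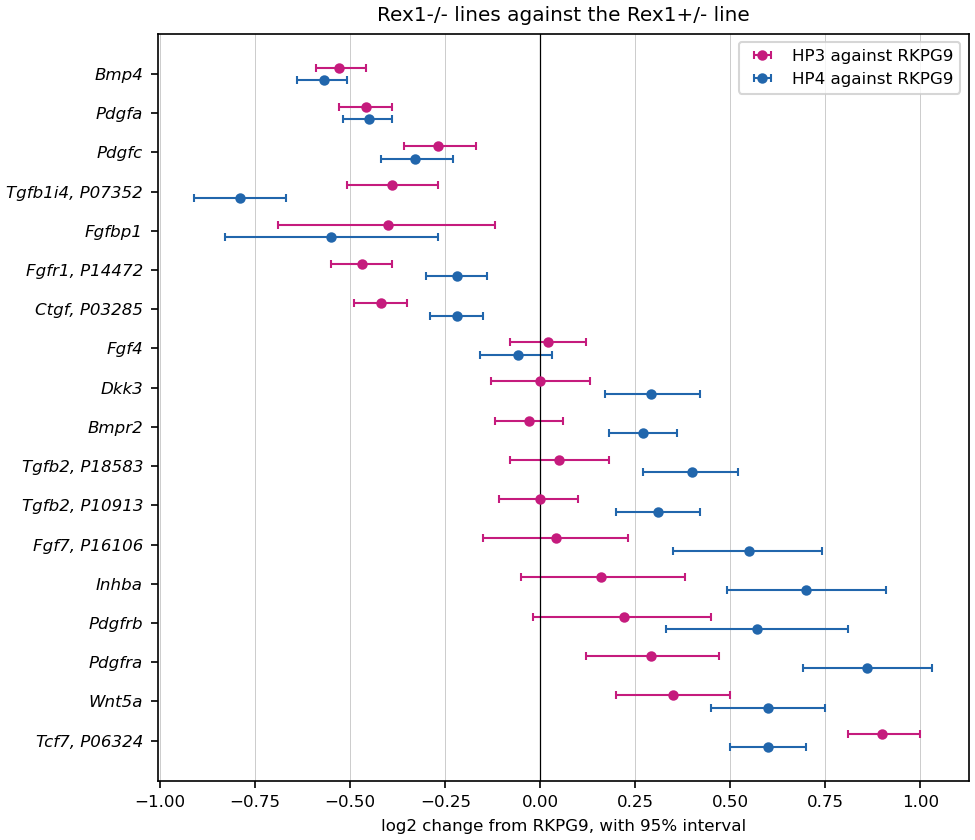
Log2 change from RKPG9 in HP3 (pink) and HP4 (blue) of 18 probes, with 95% intervals from limma. Bmp4 and Pdgfa fell in both lines (-0.53 and -0.57, -0.46 and -0.45), Tcf7 and Wnt5a rose in both, and Dkk3, Bmpr2, Tgfb2, Fgf7, Inhba and Pdgfrb lie above 0 in HP4 with intervals in HP3 that include 0.

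Of the 16 probes that rose in HP4 against HP3, 11 had mean log2 ratios below 0 in both lines (Pdgfra, Inhba, Fgf7, Pdgfrb, both of Tgfb2, Bmpr2, Dkk3, Fgfr1, Tgfb3 and Ctgf), 3 lay above 0 in both (Wnt5a, Fgf8 and Bmp8b), and 2 went from below to above (Fgfr3 and Fgf3). Other measures differed between the lines as well. The SD of the log2 ratios over all probes was 0.710 to 0.741 on the HP4 arrays, 0.770 to 0.801 in HP3, 0.779 to 0.787 in RKPG9 and 0.668 to 0.701 in EB5. Of 21 measured mesenchymal markers, which include Pdgfra and Pdgfrb, 10 rose and 1 fell in HP4 against HP3 (13.7% and 14.7% of all probes), and 14 rose and 2 fell against RKPG9 (20.8% and 19.2%). Their mean log2 ratio was -1.89 to -1.82 in HP4, -2.10 to -1.97 in HP3, -2.14 to -2.13 in RKPG9 and -1.67 to -1.53 in EB5, and 19 or 20 of them were well above background on every array of a line. Of 16 pluripotency genes, which include Zfp42 and whose mean lies above 0, none rose and 11 fell in HP4 against HP3 (again 13.7% and 14.7% of all probes). The part of these shifts in the HP4 changes was not tested.
The other marker lists, against RKPG9, where 12.6% of all probes rose and 10.1% fell in HP3 and 20.8% and 19.2% in HP4, gave 0 up and 1 down of 12 trophoblast genes in HP3 and 4 up and 1 down in HP4. Of 15 extraembryonic endoderm genes 2 rose and 4 fell in HP3, and 5 rose and 4 fell in HP4. Of 10 primitive streak and mesoderm genes 0 rose and 1 fell in HP3, and 0 rose and 2 fell in HP4. Of 6 neuroectoderm and epiblast genes, which include Fgf5, 4 rose in HP3 and 6 in HP4. In each line 5 of these 6 were well above background on all 3 arrays. These lists were chosen with earlier results known, and their part in the changes of the signalling genes was not tested.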

How the data were processed

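RNA of 4 mouse ES cell lines (3 arrays each, line in Cy3, universal reference in Cy5, no dye swap) was measured on 2-colour Agilent 22K arrays. The authors scanned the arrays and deposited spot intensity values from Agilent Feature Extraction 7.5.1. They also deposited a table of log10 values, used here as an alternative. The intensity values were corrected with normexp (offset 50) and normalised within array by loess (limma 3.58.1, R 4.3.3). Control spots, outlier spots and 91 spots of retired probes were left out, leaving 20280 probes. The value is log2 Cy3 over Cy5. All 12 arrays entered 1 limma model with 6 comparisons, with Benjamini-Hochberg adjustment over all probes at 0.05. No pairing block was used. Symbols were updated through RefSeq, and 65 of the 76 probes had a current symbol and 8 an updated one. The brightest probe stood for a gene of a list. Named genes were the 5 largest rises and falls per comparison without overlap of arrays, a list of known ES cell genes, those listed by the study, and up to 4 genes of each pathway list with the largest change against EB5. The members and lists were chosen with earlier results of these data known. The alternatives were other background corrections, offsets, normalisations, filters and weights, the Cy3 channel alone, the deposited table, and leaving out each array. Precision is limited by how few arrays there are. The fit was tested on simulated data.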

Additional observations from a re-analysis of the deposited data

Results flagged for a closer look

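The difference between the changes of HP4 and HP3 from RKPG9, which the HP4 against HP3 comparison tests (limma, adjusted p), stood out for 10 probes, the 5 largest rises and 5 largest falls without overlap of arrays. HP4 exceeded HP3 by 0.57 for Pdgfra, 0.54 for Inhba, 0.51 for Fgf7 (A_65_P16106), 0.35 for Pdgfrb and 0.34 for Tgfb2 (A_65_P18583), with adjusted p between 0.00045 and 0.030. With the processed signals Pdgfra kept the call, Inhba lost it with the difference as large (0.56), and Fgf7 (0.21), Pdgfrb (0.18) and Tgfb2 (0.068) lost it with a smaller difference. HP4 was lower than HP3 by -0.40 for Tgfb1i4 (A_65_P07352), -0.31 for Tcf7 (A_65_P06324), -0.22 for Bmp15 (A_65_P01009), -0.18 for Fgfr2 at A_65_P18209 and -0.16 for Fgfr2 at A_65_P13548, with adjusted p between 0.00059 and 0.022. The Bmp15 call was lost without HP3 replicate 1 or 3 or HP4 replicate 3 (-0.22 to -0.19) and turned to 0.16 under median centring, and the Pdgfrb call was lost without HP3 replicate 2 or 3 or HP4 replicate 1 (0.26 to 0.37). At the other Bmp15 probe, A_65_P06395, the HP4 minus HP3 difference was 0.04 and did not pass (adjusted p = 0.65). Tcf7 was above RKPG9 in both lines (0.90 in HP3 and 0.60 in HP4), and Tgfb1i4 below it in both (-0.39 and -0.79).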

How the results depend on the processing

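Counts of the 76 probes that passed moved by over 1.5 times in 6 cases. The count past 2-fold, 0 in each comparison, became 0 to 9 with the processed signals, 1 to 4 at an offset of 0, 0 to 3 under median centring and 0 or 1 in the Cy3 channel alone. Without background subtraction 27 passed in HP4 against EB5 (43 in the values above). In the Cy3 channel alone 8 passed in HP3 against RKPG9 (15), 19 in HP4 against RKPG9 (32) and 10 in HP4 against HP3 (22). Under median centring 57 passed in HP4 against RKPG9 and 49 in HP4 against HP3. Leaving out each array gave 26 to 32 for RKPG9 against EB5, 21 to 27 for HP3 against EB5, 36 to 43 for HP4 against EB5, 11 to 15 for HP3 against RKPG9, 27 to 32 for HP4 against RKPG9 and 17 to 22 for HP4 against HP3. The split of upward and downward calls shifted by over 10 percentage points as well: in HP4 against RKPG9, 21 up and 11 down became 16 and 22 for the processed signals, 19 and 16 at an offset of 0, 14 and 21 for the deposited table and 25 and 8 without background subtraction. In HP4 against HP3, 16 and 6 became 12 and 14, 13 and 11, 11 and 14, and 20 and 4 under the same settings. HP3 against EB5 went from 5 and 21 to 9 and 20 (processed signals) and 8 and 14 (Cy3 alone), HP3 against RKPG9 from 8 and 7 to 4 and 6 (median centring) and 1 and 7 (Cy3 alone), and HP4 against EB5 from 20 and 23 to 16 and 11 (no subtraction). The replicate numbers did not pair the arrays (18 same-numbered pairs, r from -0.18 to 0.19, 4 over 0.1), and with the replicate number as a block 23 passed in HP4 against HP3 and the other 5 counts stayed as they were. No named gene gained or lost its call with this block.

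Direction turned for 30 of the 3268 combinations of the 182 named changes with an alternative. Only turns where the change passed in the main fit or under the alternative were counted. In the Cy3 channel alone these were Fgfr1 in HP4 against RKPG9 (0.0038) and HP3 against EB5 (0.039), Pdgfra in RKPG9 against EB5 (0.042), Id1 in HP3 against EB5 (0.0067), Tgfb2 at A_65_P10913 in HP4 against EB5 (0.19), Fgf4 in HP3 (-0.30) and RKPG9 (-0.36) against EB5, Tcf7 at A_65_P03815 in HP3 (-0.33) and HP4 (-0.13) against RKPG9, Smad1 at A_65_P11279 in HP4 against RKPG9 (0.0086), and Bmp7 in HP4 against EB5 (0.071). Under median centring they were, in HP4 against EB5, Id2 (-0.13), Fgfr2 at A_65_P13548 (0.052), Tcf7 at A_65_P06324 (-0.24) and Pdgfrb (-0.013), and in HP4 against HP3, Id3 (-0.080), Bmp15 (0.16), Ctgf (-0.16), Pdgfa (-0.49), Fgfr1 (-0.20) and Fgfr2 at A_65_P13548 (0.14), as well as Bmp6 (0.18), Bmp15 (0.28) and Smad5 (-0.093) in HP4 against RKPG9. Pdgfrb in HP4 against EB5 turned to -0.34 for the processed signals and for the deposited table, and to -0.19 at an offset of 0. Without background subtraction Pdgfrl in HP4 against EB5 was 0.057, Bmp7 in HP4 against EB5 was 0.014 and Furin in HP4 against RKPG9 was 0.10. The cause was not tested. Another 170 lost the call and 8 gained it. The other 3060 kept the call or its absence, with any turn of direction where neither value passed counted there. Every combination for Bmp4 and Pdgfa in HP3 and HP4 against RKPG9 and EB5 kept direction and call. The filter on dim probes gave no value for the probes it removed. Probes near background carry the least precise ratios.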
